A study of Mus musculus with 2 samples.

Results

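Major histocompatibility complex (MHC) class I molecules carry peptides from inside the cell to its surface, where CD8 T cells read them. The genes described here are the 10 that encode class I chains, the peptide-loading machinery and the class I transactivator: B2m, H2-K1, H2-D1, H2-T23, Tap1, Tap2, Tapbp, Tapbpl, Nlrc5 and Erap1. They were chosen by symbol, and all 10 were found among the 55487 genes of the deposited tables. RNA was sequenced from pancreatic beta cells, which make insulin, of mice 2 months old. The mice carried MytF/F, Myt2F/F and Myt3F/F together with RipCre: floxed alleles of the 3 myelin transcription factor genes, listed in the tables as Myt1, Myt1l and St18, and a Cre recombinase driven by the rat insulin promoter, which acts in beta cells. The mice are described as pooled males and females, islets were dispersed with trypsin, and the cells were purified by flow sorting. Both libraries come from mutant cells: library 2 is labelled only as a duplicate, and library 1 is the other. Control cells were not analysed here, so no value below compares mutant with control.

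Class I heavy chains, encoded in mouse by H2-K1, H2-D1 and the related H2-T23, pair with beta-2-microglobulin, the product of B2m. The transporter made of Tap1 and Tap2 moves peptides from the cytosol into the endoplasmic reticulum, where Erap1 trims them. Tapasin (Tapbp) holds the empty heavy chain at the transporter, and its relative TAPBPR (Tapbpl) edits the bound peptides. Nlrc5 activates class I promoters together with RFX, CREB family and NF-Y factors, and interferons raise much of this machinery. In human islets, high class I on beta cells is a known feature of type 1 diabetes.

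The promoters of the heavy chains and B2m show what these genes share in sequence, and the letters below were read from RefSeq on GRCm38.p6 as the 200 bases before the annotated start. Promoter entries were found for 7 of the 10 genes and not for Tap2, Tapbpl and Nlrc5, and of the 2 entries of H2-K1 the first was used. Capitals mark matches on either strand to an interferon-stimulated response element (the short form GAANNGAAA or its longer full form), the NF-kB consensus, the X2 half-site TGACG bound by CREB family factors, and the Y box CCAAT bound by NF-Y. The first 3 sequences hold the X2 half-site and the Y box together, and Tap1 and H2-T23 are shown because they do not.
B2m (chr2:122147487-122147686, plus strand): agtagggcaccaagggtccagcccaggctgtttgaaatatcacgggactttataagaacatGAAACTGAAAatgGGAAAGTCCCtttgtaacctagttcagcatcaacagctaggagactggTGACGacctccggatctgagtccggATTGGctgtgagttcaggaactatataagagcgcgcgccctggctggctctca
H2-K1 (chr17:34000348-34000547, minus strand): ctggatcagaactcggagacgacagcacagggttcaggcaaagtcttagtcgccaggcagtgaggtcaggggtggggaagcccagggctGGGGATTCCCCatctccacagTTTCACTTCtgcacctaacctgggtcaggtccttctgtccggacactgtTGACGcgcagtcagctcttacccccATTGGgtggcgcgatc
H2-D1 (chr17:35262894-35263093, plus strand): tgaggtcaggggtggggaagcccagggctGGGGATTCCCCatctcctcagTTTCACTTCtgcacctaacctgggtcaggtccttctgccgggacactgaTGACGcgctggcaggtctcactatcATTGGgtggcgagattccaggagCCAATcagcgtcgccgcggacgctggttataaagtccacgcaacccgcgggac
H2-T23 (chr17:36032702-36032901, minus strand): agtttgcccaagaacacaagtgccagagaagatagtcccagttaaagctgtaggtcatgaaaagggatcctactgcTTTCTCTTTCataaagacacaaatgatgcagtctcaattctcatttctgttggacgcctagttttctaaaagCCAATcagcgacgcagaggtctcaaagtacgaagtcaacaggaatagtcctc
Tap1 (chr17:34187356-34187555, plus strand): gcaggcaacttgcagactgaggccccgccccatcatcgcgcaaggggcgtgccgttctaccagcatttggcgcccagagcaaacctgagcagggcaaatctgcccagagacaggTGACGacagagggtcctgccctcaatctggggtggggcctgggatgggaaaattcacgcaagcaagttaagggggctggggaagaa

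In B2m, H2-K1 and H2-D1 the half-site TGACG was followed by ATTGG, the Y box on the other strand, after exactly 20 bases. A gap of 18 to 22 bases between these letters, on either strand, was found in 0.234% of all 32851 promoter entries of this length. It was found in 3 of the 7 promoters of the class I genes and in 2 of the 11 with an entry among the other class I and class I-like chains, H2-Q7 and H2-M3. Among the other pathway and marker lists it was found in H2-Aa, a class II chain gene (1 of 6 promoters of that list), and in Jak1, an interferon receptor kinase gene (1 of 7). The motifs and this spacing were chosen with the promoters in view. The full response element was present in B2m and H2-T23 (2.27% of all promoters) and the short form in H2-K1 and H2-D1 (5% of all promoters). NF-kB consensus letters, which overlap themselves in H2-K1 and H2-D1, were found in those genes and in B2m (6.07% of all promoters). Tap1 held the half-site (15.7% of all promoters) but no Y box (29.3%), Tapbp held a Y box alone, and Erap1 held none of these letters. The interferon gamma activated site TTCNNNGAA (5.49% of all promoters) was found in none of the 7 windows. These matches describe letters and not bound sites. They also depend on the RefSeq start used. By the GENCODE M21 annotation the H2-D1 window lies inside the gene, which begins at 35262730. Part of the H2-T23 window lies inside its gene, which reaches 36032855 on the minus strand. The Tap1 window lies wholly inside the neighbouring gene Psmb9 (34181987 to 34187764, minus strand).

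The libraries held 39003197 counted reads (library 2) and 50121771 (library 1). CPM below is a gene's share of these reads scaled to a fixed total, and is used to compare libraries. All 8 beta-cell markers reached 1 CPM in both libraries, and their sum was 180800 CPM in library 2, against 177200 CPM in library 1. Gene by gene, their log2 ratios of library 2 over library 1 ran from −0.49 to 0.32. All 8 differed beyond counting error (adjusted p under 0.05, exact binomial test). The targeted genes were counted over all exons, which does not check the deletion: Myt1 stood at 65.4 CPM in library 2, against 77.6 CPM in library 1, Myt1l at 39.05 CPM in library 2, against 44.5 CPM in library 1, and St18 at 56.5 CPM in library 2, against 72.7 CPM in library 1. The libraries stood apart in Xist, expressed from the inactive X chromosome, with 653 CPM in library 2, against 5.01 CPM in library 1, and in the Y-linked Ddx3y, with 64.2 CPM in library 2, against 101.9 CPM in library 1. The Y-linked Uty, Eif2s3y and Kdm5d were also higher in library 1, Kdm5d with 21.4 CPM in library 2, against 46.4 CPM in library 1. Despite the described pooling, these values point to few female cells in library 1. The libraries also differed in acinar enzyme genes, which summed to 524 CPM in library 2, against 116 CPM in library 1. In bulk RNA, a different number of cells of a type and a different amount of RNA per cell cannot be told apart.

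Every class I gene was expressed in both libraries. Together the 10 genes took 0.117% of the counted reads in library 2 and 0.0886% in library 1. Levels of different genes are compared as TPM, which is also scaled by gene length. All 10 reached 1 CPM in both libraries, and their mean levels spanned 123-fold in TPM.

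The heavy chains H2-K1 and H2-D1 stood highest. H2-K1 had 344 TPM in library 2 and 269 TPM in library 1, a mean of 307 ± 52.9 TPM (SD, n = 2). H2-D1 had 287 TPM in library 2 and 251 TPM in library 1, a mean of 269 ± 25.1 TPM (SD, n = 2). Their ranges overlapped, yet H2-K1 exceeded H2-D1 within each library, 1.20-fold in library 2 (exact 95% counting interval 1.17 to 1.23) and 1.07-fold in library 1 (1.05 to 1.10). H2-T23, which encodes the nonclassical chain Qa-1, had 41.5 TPM in library 2 and 25.7 TPM in library 1. It stood at 0.121 of the level of H2-K1 in library 2 (0.115 to 0.127) and 0.0955 in library 1 (0.0903 to 0.101). Part of the letters of these genes occurs elsewhere: 9.63% of the 50-base words of H2-K1, 12.8% of those of H2-D1 and 14.5% of those of H2-T23 were found in transcripts of other genes. Their counts are uncertain for that reason, and these shares do not measure by how much.

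Within each library B2m was less abundant than either classical heavy chain. It had 267 TPM in library 2 and 134 TPM in library 1, a mean of 200.5 ± 94.3 TPM (SD, n = 2). Its level was 0.776 of that of H2-K1 in library 2 (0.747 to 0.806) and 0.497 in library 1 (0.474 to 0.520). The summed levels of H2-K1, H2-D1 and H2-T23 were 672.5 TPM in library 2 and 546 TPM in library 1, above B2m in both.

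In the peptide-loading group the tapasin pair stood above the transporter subunits. Tapbp had 91.0 TPM in library 2 and 75.4 TPM in library 1, and Tapbpl had 93.5 TPM in library 2 and 73.9 TPM in library 1. These levels could not be separated, since the ratio of Tapbp over Tapbpl was 0.973 (0.930 to 1.02) in library 2 and 1.02 (0.975 to 1.07) in library 1. Tap2 had 33.5 TPM in library 2 and 29.1 TPM in library 1. Tap1 had 23.1 TPM in library 2 and 10.2 TPM in library 1. Tap1 thus stood at 0.689 of the level of Tap2 in library 2 (0.6455 to 0.736) and at 0.349 in library 1 (0.323 to 0.376), 2 intervals that do not overlap. In reads, Tap1 and Tap2 were level in library 2 (1811 and 1814), while library 1 held 1012 and 2004. The intervals do not cover uncertainty in the exon lengths behind TPM, 5476 bases for Tap1 and 3781 for Tap2. The trimming peptidase Erap1 had 33.3 TPM in library 2 and 26.3 TPM in library 1. Relative to Lnpep, which encodes the endosomal peptidase IRAP, Erap1 stood at 0.817 (0.785 to 0.850) in library 2 and 0.591 (0.569 to 0.614) in library 1.

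The transactivator was the lowest of the 10 genes. Nlrc5 had 4.10 TPM in library 2 and 0.887 TPM in library 1, a mean of 2.49 ± 2.27 TPM (SD, n = 2). These values rest on 499 reads in library 2 and 137 reads in library 1. Ranked by level among all genes listed, Nlrc5 stood at position 11177 in library 2 and 16021 in library 1, while H2-K1 stood at 171 in library 2 and 233 in library 1.

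In the order of mean levels, H2-K1, H2-D1, B2m, Tapbpl, Tapbp, H2-T23, Tap2, Erap1, Tap1 and Nlrc5, the ranges of the libraries overlapped between H2-K1 and H2-D1, between H2-D1 and B2m, between Tapbpl and Tapbp, and among H2-T23, Tap2 and Erap1. They did not overlap between B2m and Tapbpl, Tapbp and H2-T23, Erap1 and Tap1, or Tap1 and Nlrc5. Without length scaling, 5 of the 10 genes changed their rank.

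**Figure D1:**
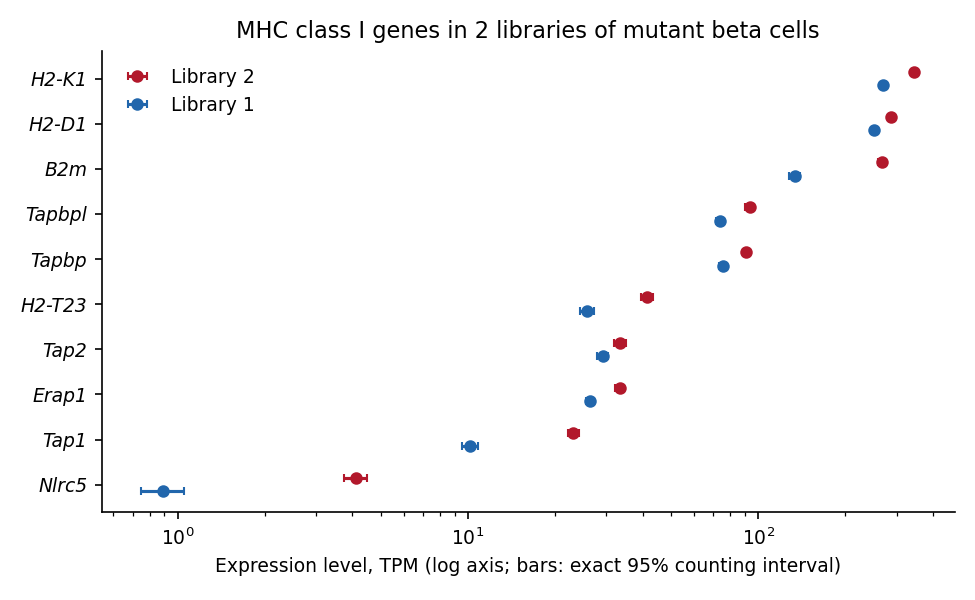
Levels of the 10 MHC class I genes in TPM on a log axis, with library 2 in red above library 1 in blue and bars for the exact 95% counting interval. Library 2 is to the right in every gene, least apart in H2-D1 (287 TPM in library 2 and 251 TPM in library 1) and most in Nlrc5 (4.10 TPM in library 2 and 0.887 TPM in library 1).

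All 10 class I genes had a larger share of the reads in library 2 than in library 1, and the size of the difference varied among them from 1.16-fold to 4.67-fold. Each gene's reads were compared between the libraries with an exact two-sided binomial test, with Benjamini-Hochberg adjustment over the 20681 genes that had 10 or more reads. Genes are referred to as called when they passed an adjusted p of 0.05 with a ratio of at least 2-fold in either direction. The test compares the reads of these 2 libraries and has no spread between replicates in it. By this rule 3 of the 10 genes, Nlrc5, Tap1 and B2m, were called higher in library 2, where 1.91% of all genes tested were called higher and 2.4% lower. At an adjusted p under 0.05 without a fold limit, all 10 passed with a higher share in library 2, against 13.4% of all genes tested higher and 19% lower. Among the 10585 genes with 500 or more reads, a depth that all 10 reached and that was chosen after seeing the data, 20.9% passed higher without a fold limit and 0.822% were called higher. Among genes with 100 or more reads the same 3 counted against 1.24% higher and 1.2% lower. At 1.5-fold, H2-T23 joined them to make 4, against 3.3% of all genes higher and 4.75% lower, and at 3-fold Nlrc5 alone passed, against 1.1% higher and 1.06% lower. Their median log2 ratio of library 2 over library 1 was 0.36, beside −0.04 for all genes tested.

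Nlrc5 differed most. It had 12.8 CPM in library 2 (11.7 to 14.0) and 2.73 CPM in library 1 (2.295 to 3.23), a log2 ratio of 2.22 (1.95 to 2.51, adjusted p = 1.89e-69, exact binomial test). Its ratio lay at percentile 99.38 of all genes tested. Tap1 had 46.4 CPM in library 2, against 20.2 CPM in library 1, a log2 ratio of 1.20 (1.09 to 1.31, adjusted p = 6.2e-103, exact binomial test). B2m had 84.4 CPM in library 2, against 41.8 CPM in library 1, a log2 ratio of 1.015 (0.935 to 1.095, adjusted p = 6.97e-142, exact binomial test). The interval of B2m includes the 2-fold limit, and its log2 ratio was under that limit, at 0.998, when TPM took the place of CPM. When edgeR's exact test was run with an assumed biological coefficient of variation of 0.2 in place of counting error alone, Nlrc5 remained called and Tap1 and B2m did not, with 0.561% of all genes called higher and 0.305% lower.

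The other 7 genes stayed under the 2-fold limit. H2-T23 was the nearest to it, with 44.0 CPM in library 2, against 27.0 CPM in library 1 (log2 ratio 0.71, 0.60 to 0.81). The classical heavy chains differed less, H2-K1 with 371 CPM in library 2, against 287 CPM in library 1 (0.37, 0.34 to 0.40) and H2-D1 with 272 CPM in library 2, against 235 CPM in library 1 (0.21, 0.17 to 0.25). The interval of H2-K1 does not overlap that of H2-D1, and neither overlaps that of B2m. The 2 subunits of the peptide transporter were unequal as well, since Tap2 had 46.5 CPM in library 2, against 40.0 CPM in library 1 (0.22, 0.13 to 0.31), an interval apart from that of Tap1. Tapbp had 121 CPM in library 2, against 99.3 CPM in library 1 (0.29, 0.23 to 0.35). Tapbpl had 80.8 CPM in library 2, against 63.1 CPM in library 1 (0.36, 0.28 to 0.43). Erap1 had 89.1 CPM in library 2, against 69.5 CPM in library 1 (0.36, 0.29 to 0.43).

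The strand setting of the counting is not given in the sources used here, so reads of genes on the other strand cannot be told apart where exons overlap. Such overlap covered 24.9% of the exon bases of Tapbp, 18.5% of Tap2, 11.5% of Erap1 and 3.87% of Tap1. Among the partner genes, Zbtb22 beside Tapbp had 31 CPM in library 2, against 35.4 CPM in library 1. Gm15821 beside Tap2 had 3.08 CPM in library 2, against 2.49 CPM in library 1, and Cast beside Erap1 had 36.7 CPM in library 2, against 35.2 CPM in library 1. Psmb9, the partner of Tap1, is described next.

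**Figure D2:**
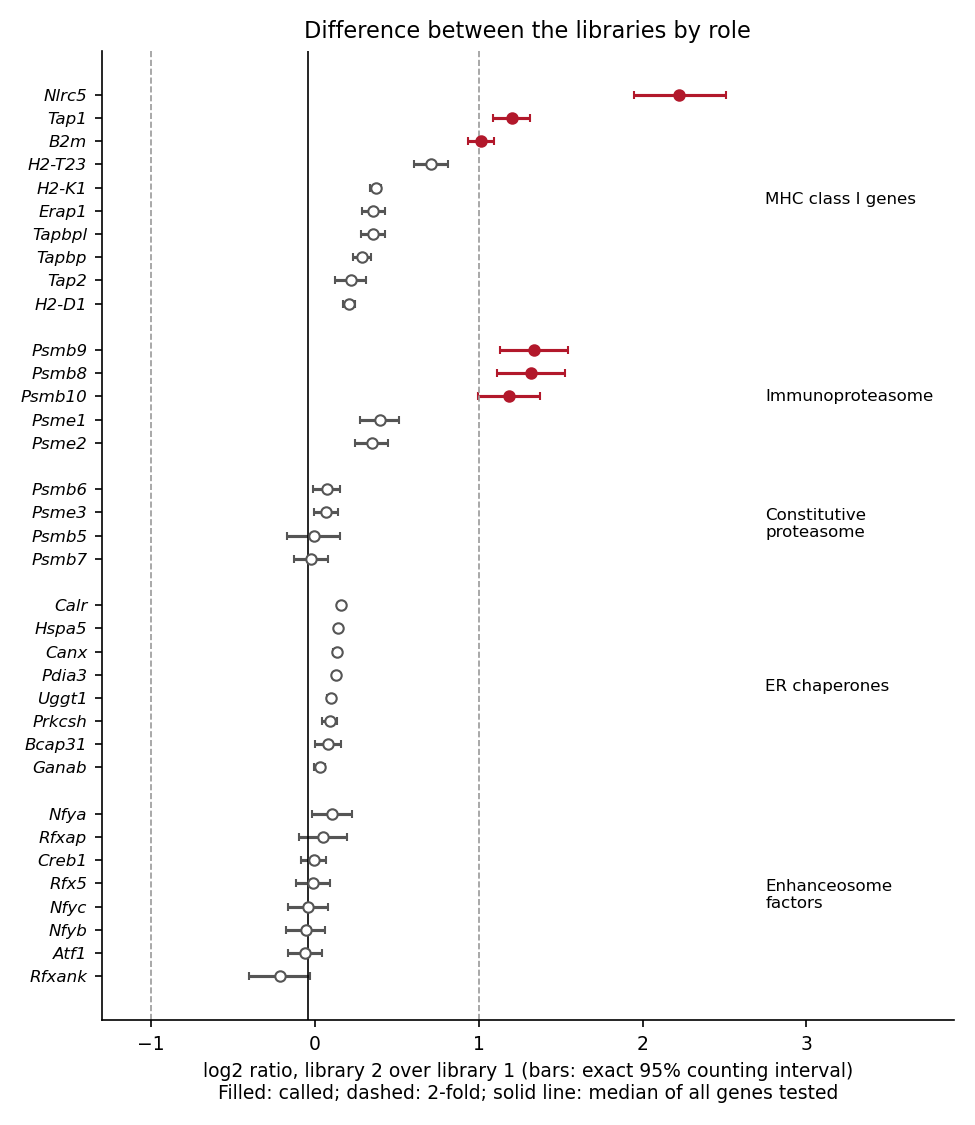
Log2 ratio of library 2 over library 1 for the class I genes and 4 groups of genes that work with them, with bars for the exact 95% counting interval, filled points for called genes and dashed lines at 2-fold. Nlrc5 (2.22), Tap1 (1.20) and B2m (1.015) are filled, as are Psmb8, Psmb9 and Psmb10, while constitutive proteasome subunits lie near 0.

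The immunoproteasome has catalytic subunits that replace those of the constitutive proteasome and favour peptides fit for class I. Of its 5 genes, 3 were called higher in library 2 and none lower, against 1.91% of all genes tested higher and 2.4% lower. The median log2 ratio of the 5 was 1.18. Psmb9 had 14.6 CPM in library 2, against 5.79 CPM in library 1 (1.34, 1.13 to 1.55). Psmb8 had 14.6 CPM in library 2, against 5.85 CPM in library 1 (1.32, 1.11 to 1.53). Psmb10 had 16 CPM in library 2, against 7.04 CPM in library 1 (1.18, 0.99 to 1.38). The activator subunits Psme1 (0.395) and Psme2 (0.35) were not called, and Psme2 had the highest level of the group at a mean of 56.4 TPM. The constitutive counterparts Psmb5, Psmb6 and Psmb7 and the activator Psme3 had log2 ratios from −0.02 to 0.07, and none of the 4 passed the adjusted p of 0.05. Psmb9 lies next to Tap1 on the other strand, and their exons overlap.

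In TPM, immunoproteasome subunits were less abundant than their constitutive counterparts in both libraries. Without length scaling this did not hold for Psmb8 in library 2, with 569 reads, against 552 for Psmb5. The ratio of Psmb8 over Psmb5 in TPM was 0.274 in library 2 (0.243 to 0.309) and 0.109 in library 1 (0.0951 to 0.125), but 54.1% of the words of Psmb5 occur in other genes, so this ratio is uncertain. That of Psmb9 over Psmb6 was 0.126 (0.115 to 0.138) in library 2 and 0.0523 (0.0461 to 0.0590) in library 1. In TPM, Psmb10 came closest to its counterpart Psmb7, at 0.903 (0.821 to 0.994) in library 2 and 0.391 (0.348 to 0.439) in library 1. This order rests on the exon lengths used for TPM. By reads alone Psmb8 came closest instead, with a log2 ratio over Psmb5 of 0.04 (library 2) and −1.28 (library 1). For Psmb10 over Psmb7 the ratio of reads was −1.15 (library 2) and −2.36 (library 1) in log2.

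Other class I and class I-like chains varied widely in their ratios. Of 17 such genes, 16 had a row, 14 were tested and 10 reached 1 CPM in both libraries. H2-Q6 (6.41 CPM in library 2, against 2.015 CPM in library 1, log2 ratio 1.665) and H2-Q1 (24 reads in library 2 and 8 in library 1, 1.89) were called higher, and none was called lower. H2-Q7 (0.97) and H2-T24 (0.93) followed. H2-Q2, which had the highest mean level at 82.2 TPM, had 64.6 CPM in library 2, against 66.2 CPM in library 1 (−0.04). The median of the group was 0.27. Of the 50-base words of H2-Q6, 35% occur in other genes, so reads may be split among these copies.

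Chaperones that fold and load class I, and that serve many secreted proteins of these cells, were abundant and nearly level. Calr, Canx, Pdia3 and 5 further genes of this group had log2 ratios between 0.03 and 0.16, and none of the 8 was called. Hspa5 was the highest, with 2984 CPM in library 2, against 2709 CPM in library 1. Of 7 cytosolic and endosomal peptidases none was called (median 0.085), with Nrd1 the highest at 85.1 TPM, Thop1 at 0.40, Lap3 at 0.205 and Lnpep at −0.11.

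The factors that act on class I promoters differed by kind. None of the 8 genes of the RFX, NF-Y and CREB factors passed the adjusted p of 0.05, and their log2 ratios ran from −0.21 (Rfxank) to 0.105 (Nfya), beside 2.22 for Nlrc5. Of the interferon signal factors reported here, Irf7 (8.92 CPM in library 2, against 2.93 CPM in library 1, log2 ratio 1.60) was called higher. Irf1 had a mean level of 46.4 TPM, with 89.5 CPM in library 2, against 45.5 CPM in library 1 (0.98), just under the limit, as was Irf8 (0.985). With TMM scaling both passed it. The 7 interferon receptor and kinase genes were not called (−0.12 to 0.14), and only Jak1, the highest of them, passed the adjusted p (173.7 CPM in library 2, against 157.6 CPM in library 1, 0.14). Of the 5 NF-kB subunit genes none was called (−0.115 for Relb to 0.365 for Rel), and Rela was the highest by level, at 32.4 TPM. No interferon ligand gene reached the 10 reads needed for the test. Ifng, Ifnb1, Ifna1, Ifna4 and Ifnl3 had 0 reads in both libraries, which allows up to 0.0769 CPM in library 2 and up to 0.0599 CPM in library 1. Ifna2 had 2 reads in library 2 and 6 in library 1, and Ifnl2 had 3 reads in library 2 and 2 in library 1.

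Most of the further interferon gamma targets were also higher in library 2. Of 12 such genes, 11 were tested and 10 were called higher, with a median log2 ratio of 2.17. Iigp1, the highest by level, had 220 CPM in library 2, against 15.04 CPM in library 1 (3.87). Tgtp1 had 4.67 CPM in library 2 and 0.0399 CPM, or 2 reads, in library 1 (6.55, 5.00 to 9.93), but 81.2% of its words occur in other genes, mostly its copy Tgtp2. Gbp2 (4.105), Ifi47 (4.12) and Igtp (2.48) were also called, as were Irgm1, Irgm2, Gbp3, Cxcl10 and Cd274, which encodes the inhibitory ligand PD-L1. Gbp7 (0.69), named after its value was seen, was not.

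**Figure D3:**
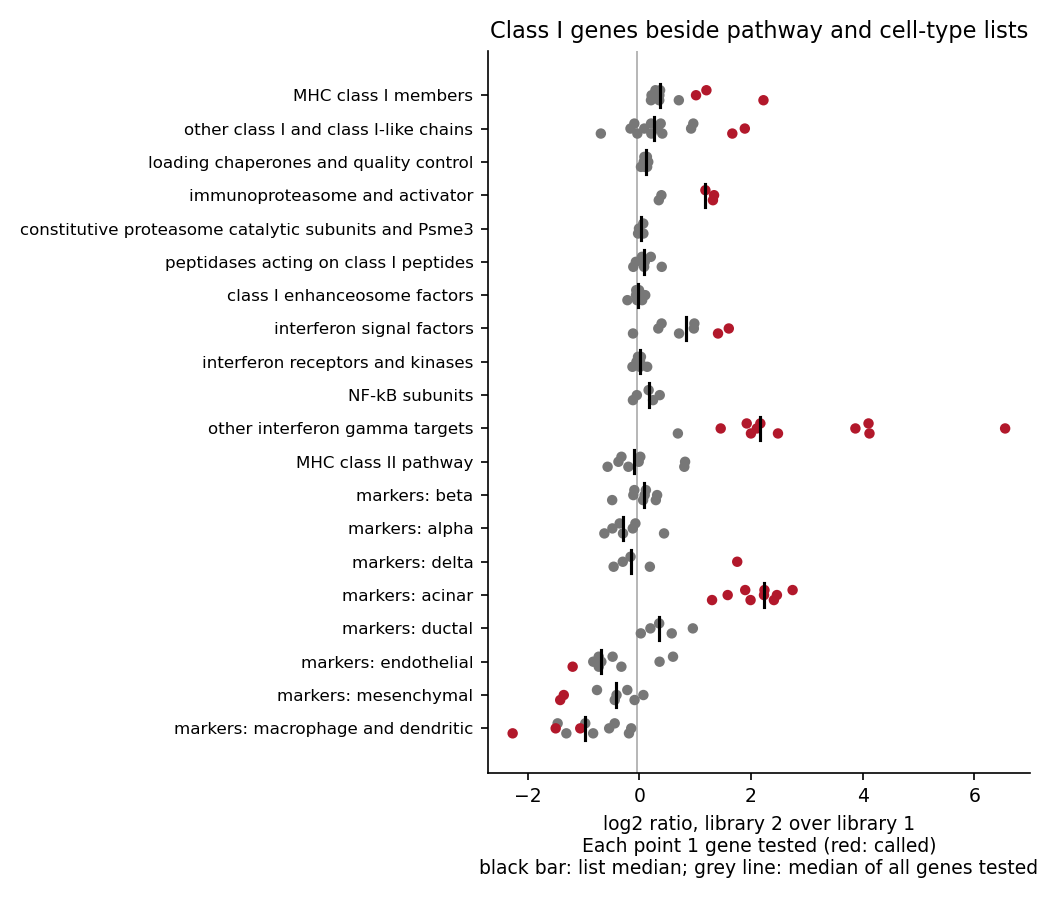
Log2 ratio of library 2 over library 1 for each tested gene of the class I group, pathway lists and cell-type markers, without lymphocyte markers. Called genes are in red, with the list median as a black bar and the median of all genes tested as a grey line. The class I median (0.36) lies between those of the interferon gamma targets (2.17) and acinar markers (2.23) on one side and the class II pathway (−0.10) and macrophage and dendritic markers (−0.97) on the other.

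Class II genes, which antigen-presenting leukocytes express, and markers of leukocytes were low in both libraries. None of the 8 tested class II pathway genes was called, and the 9 genes summed to 28.15 CPM in library 2, against 32.0 CPM in library 1. Cd74 had 7.28 CPM in library 2, against 10.8 CPM in library 1 (log2 ratio −0.57), while Ciita, the class II transactivator and a relative of Nlrc5, had 2.41 CPM in library 2, against 1.38 CPM in library 1 (0.805, not called). The 12 macrophage and dendritic markers summed to 40.1 CPM in library 2, against 48.5 CPM in library 1, of which C1qa made up 35.3 CPM in library 2, against 39.1 CPM in library 1. Only 2 of the 12 macrophage and dendritic markers reached 1 CPM in both libraries, so the ratios of most rest on few reads. The median log2 ratio of the list was −0.97, with 3 of the 11 tested, Fcer1g, Lyz2 and Tyrobp, called lower in library 2. The 12 lymphocyte markers summed to 0.615 CPM in library 2, against 1.60 CPM in library 1. Cd8a, Cd8b1, Gzmb and Ptprcap had 0 reads in both, and Cd79a, the only one tested, was called lower (0.333 CPM in library 2, against 1.12 CPM in library 1).

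Markers of other pancreatic cells differed in both directions. All 9 tested of the 10 acinar markers were called higher in library 2, with a median log2 ratio of 2.23, led by Cel (74.4 CPM in library 2, against 11.1 CPM in library 1, 2.745), and Ctrb1 was the highest at 241 TPM. The 5 ductal markers had a median of 0.355 and none was called, and they summed to 70.3 CPM in library 2, against 61.3 CPM in library 1. The 9 endothelial markers summed to 23.1 CPM in library 2, against 31.7 CPM in library 1 with Pecam1 called lower, and the 8 mesenchymal markers summed to 10.5 CPM in library 2, against 16.1 CPM in library 1 with Col1a2 and Pdgfra called lower. Alpha-cell markers had a median of −0.29 with no call. Delta-cell markers had a median of −0.16, with Lepr called higher (1.75). The part of acinar and other cells, and of the mix of male and female mice, in the class I difference was not tested.

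Of the 10 class I genes, 6 lie in the MHC on chromosome 17. On GRCm38 with GENCODE M21 these are Tapbp (33915899 to 33929292, plus strand), H2-K1 (33996017 to 34000347, minus), Tap1 (34187553 to 34197225, plus), Tap2 (34203527 to 34216321, plus), H2-D1 (35262730 to 35267499, plus) and H2-T23 (36029773 to 36032855, minus). The others lie apart, B2m on chromosome 2 (122147686 to 122153083, plus), Tapbpl on chromosome 6 (125223933 to 125231860, minus), Nlrc5 on chromosome 8 (94434356 to 94527272, plus) and Erap1 on chromosome 13 (74639568 to 74693201, plus). The called genes Nlrc5 and B2m are thus outside the complex and Tap1 is inside it.

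Across the complex the ratios centred near 0, with quartiles of −0.25 and 0.21 on the log2 scale. Of the 131 tested genes that start between Tapbp and the end of H2-T23, a stretch of 2117 kb, 6 were called higher in library 2 (4.58%) and 2 lower, against 1.91% and 2.4% of all genes tested. The median log2 ratio in the stretch was −0.02. Besides Tap1 the 6 were Psmb8, Psmb9, H2-Q1, H2-Q6 and H2-Q5, that is, 2 immunoproteasome subunits and 3 class I chain genes, of which H2-Q5 is annotated as a polymorphic pseudogene. The lower 2 were H2-DMb2 (1 read in library 2, against 13 in library 1) and Hspa1l (16 reads in library 2, against 44 in library 1), named after their values were seen. Without the 6 class I genes described here, 5 of 125 were called higher (4%). Tap1 lies between Psmb9 and Psmb8, at 186, 191.5 and 201.7 kb from the lower coordinate of H2-K1 for Psmb9, Tap1 and Psmb8, and Tap2 follows directly with a log2 ratio of 0.22. Leaving aside genes whose mean CPM was under 1, the lowest ratios were those of Ager (−0.78), Ddah2 (−0.63), Hspa1b (−0.48), Rgl2 (−0.40) and Hspa1a (−0.39), none of them called.

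**Figure D4:**
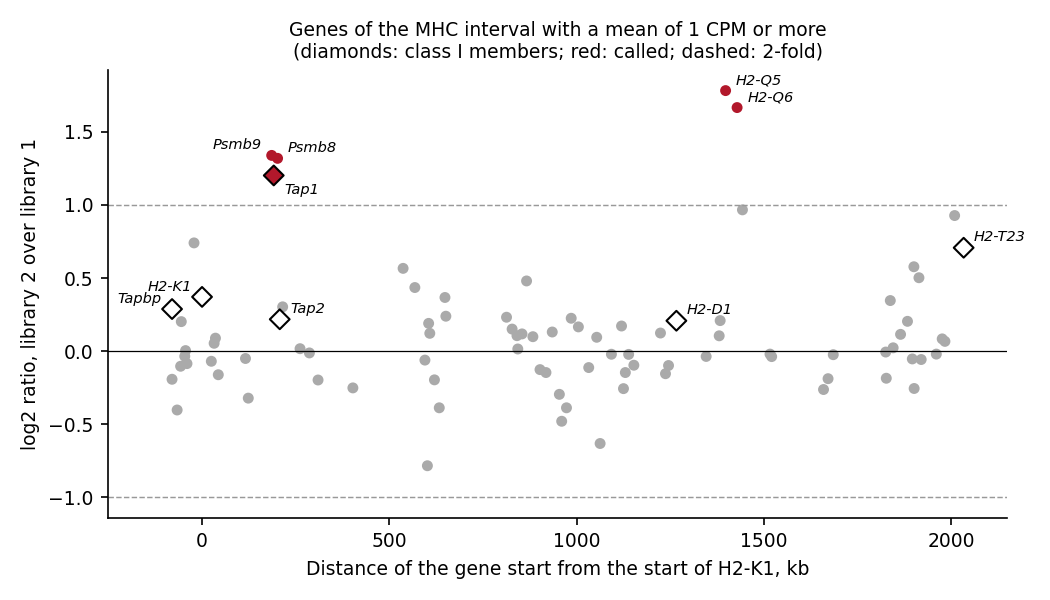
Log2 ratio of library 2 over library 1 against the distance of each gene's lower coordinate from that of H2-K1, for genes of the MHC stretch whose mean reached 1 CPM. The called genes (red) form 2 groups, Psmb9, Tap1 and Psmb8 at 186.0 to 201.7 kb and H2-Q5 and H2-Q6 at 1398.1 and 1428.8 kb, and the other class I members (open diamonds) lie between 0.21 and 0.71.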

How the data were processed

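Total RNA of sorted beta cells was sequenced in 2 libraries of 1 mutant group. The deposited tables give a raw read count, a CPM value (scaled to the counted reads) and a TPM value (scaled also by gene length) per gene, per the file headers. Tools listed in the submitters' processing notes are featureCounts 2.0.2, STAR 2.7.8a and cutadapt 2.10, with the build GRCm38.p6, and no settings. For all 10 class I genes the length implied by the deposited TPM equalled the merged exons of GENCODE M21. The reference is a C57BL/6J genome, the mouse strain is not given in the sources used here, and class I chains vary between strains.

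Analysis used Python 3.11.15, scipy 1.17.1, R 4.3.3, edgeR 4.0.16 and DESeq2 1.42.0. Where 109 symbols had several identifiers, the one with most reads kept the symbol. Counts with 10 or more reads summed were tested between the libraries with an exact binomial test against the library totals, 0.5 read being added for the ratio. The test was checked on simulated counts that held counting error only, so the check does not cover spread between mice or libraries. No edgeR quasi-likelihood test was possible with 1 group. Intervals are exact Clopper-Pearson at 95%, and with the limit for a count of 0 (3 reads) they cover counting error only. The labels do not say whether the libraries came from separate mice. Xist and Y-linked genes differed between them beyond counting error, so they are not repeat libraries of the same RNA. Named genes were the 10 members, and of each list the highest by level, those called and up to 4 with the largest ratios. The members, the 12 pathway lists and the 9 marker lists were chosen with earlier results of these data known. The result for 1 listed gene is not reported here.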

Additional observations from a re-analysis of the deposited data

How the results depend on the processing

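All 10 class I genes kept a ratio above 1 under every scaling and filter tried, but these settings could not have changed that. A scaling moved every gene by the same amount, at most 0.044 in log2, and a filter left the ratios as they were. The smallest log2 ratio of the 10 was 0.208. Over these settings the log2 ratio ran from 2.21 to 2.27 for Nlrc5, 1.18 to 1.245 for Tap1, 0.998 to 1.06 for B2m, 0.69 to 0.75 for H2-T23 and 0.19 to 0.25 for H2-D1. TMM, DESeq2 size factors, totals without the 10 genes with most reads and the TPM ratio left the counts of called genes among the class I genes, all genes and the MHC stretch within 1.5 times; TMM took Irf1 and Irf8 past the limit and raised ductal markers to 1 called. The median of all genes tested moved by at most 0.04. A 3-fold limit left 1 class I gene called (Nlrc5), 227 genes higher and 220 lower, and 3 and 1 in the MHC stretch. A 1.5-fold limit gave 682 and 982 genes and 11 and 5 in the stretch, and added H2-T23 to the called class I genes. The edgeR exact test with an assumed coefficient of variation gave 1 class I gene, 116 and 63 genes, and 1 and 0 in the stretch. A minimum of 100 reads gave 170 and 165 genes and 0 lower in the stretch, and no filter gave 1 lower there; both test a different number of genes.

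Without length scaling the mean log2 ratio was 0.37 for H2-K1 over H2-D1 (0.18 with it), −2.46 for B2m over H2-K1 (−0.69), −1.48 for Erap1 over Lnpep (−0.525), −0.62 for Psmb8 over Psmb5 (−2.53), −2.66 for Psmb9 over Psmb6 (−3.625) and −1.755 for Psmb10 over Psmb7 (−0.75), since gene lengths differ. For Tap1 over Tap2 the mean was −0.49 without length scaling (−1.03 with it), and the unscaled value in library 2 alone was −0.002. Psmb8 over Psmb5 was 0.04 in library 2 alone without length scaling. Tapbp over Tapbpl changed sign, at 0.62 without length scaling and −0.006 with it. Leaving out 1 library at a time gave a range of −0.04 to 0.028 for that pair. With 1 library left, a mean is that library's own value: for Nlrc5 4.10 TPM (library 2) or 0.887 TPM (library 1), against 2.49 TPM over both, and for Tap1 23.1 TPM (library 2) or 10.2 TPM (library 1), against 16.6 TPM. No paired analysis was possible because the libraries carry no replicate number in the labels and form 1 group. With 2 libraries, differences between mice, their sex mix and library preparation cannot be told apart.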
